A study of Homo sapiens with 4 samples.

Results

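Keratins are the intermediate filament proteins of epithelial cells, and the 55 keratin genes listed in the deposited table are described here across 4 RNA-seq libraries of A549, a long-established cell line from a human lung adenocarcinoma. Members were taken by symbol alone, KRT followed by digits and at most 1 letter A, B or C, from 26255 gene symbols. No measured value entered that rule, but it was chosen with earlier results of these data known. The libraries, 1 per group, were the acinar tumor and the solid tumor, which are A549 cells cut by laser microdissection from tumors of acinar (gland-forming) or solid type grown in immunodeficient mice, and the mix culture and the single culture, which are GFP-labelled A549 cells sorted from 3D colonies. The mix colonies were taken to be those formed together with cancer-associated fibroblasts (CAFs) and the single colonies those without, a reading of the titles, since the presence of CAFs is the only culture variable described. Tumors and cultures differ both in where the cells grew and in how they were isolated, so these cannot be told apart, and the labels do not say whether the acinar and solid cells shared a tumor or mouse.

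A keratin filament is built from pairs of a type I (acidic) and a type II (basic) chain, so an epithelial cell needs at least 1 of each. Single-layered epithelia such as lung, gut and glandular linings make the simple keratins KRT7, KRT8, KRT18, KRT19 and KRT20, whereas layered epithelia such as epidermis, airway basal layer and oral mucosa make stratified keratins, among them KRT5 with KRT14 in basal cells, KRT1 with KRT10 in differentiating epidermis, and KRT6A, KRT6B, KRT16 and KRT17 in wounded, hyperproliferating or hair-associated epithelium. A further group builds the hair shaft and the inner root sheath. Lung adenocarcinomas are typically positive for KRT7, KRT8, KRT18 and KRT19.

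Several keratins are near-identical copies, which decides how far their values can be trusted. The coding sequences of KRT6A and KRT6B, both of 1692 bases, were 97.5% identical and shared an uninterrupted run of 269 bases, and KRT6A and KRT6C were 97.9% identical with a run of 349 bases. The hair keratins KRT81 and KRT86 were 90.1% identical overall but shared a run of 605 bases, while KRT81 and KRT83 were 89.3% identical with a longest shared run of 95 bases. KRT14 shared a run of 158 bases with KRT16 (85.2% identical) and of 59 bases with KRT17 (78.0% identical). A fragment lying wholly in such a run cannot be assigned to 1 copy by its sequence. The stretch of 90 coding bases in which KRT6A and KRT6B differ most (positions 656 to 745 of the coding sequence) shows where they can be separated, with capitals at each of the 10 positions where the 3 copies are not all alike.
KRT6A: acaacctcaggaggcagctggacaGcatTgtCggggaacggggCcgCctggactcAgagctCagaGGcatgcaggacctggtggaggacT
KRT6B: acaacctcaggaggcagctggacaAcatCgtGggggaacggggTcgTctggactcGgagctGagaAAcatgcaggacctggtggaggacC
KRT6C: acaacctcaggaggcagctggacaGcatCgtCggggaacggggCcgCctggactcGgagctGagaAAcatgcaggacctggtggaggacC

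The same is shown for the hair keratins, over the 90 coding bases where KRT81 and KRT86 differ most (positions 1237 to 1326 in both, and 1252 to 1341 in KRT83). Capitals mark the 21 positions where the 3 genes are not all alike. All 6 sequences, from genes on chromosome 12, were read 5′ to 3′ from GENCODE 29 transcripts.
KRT81: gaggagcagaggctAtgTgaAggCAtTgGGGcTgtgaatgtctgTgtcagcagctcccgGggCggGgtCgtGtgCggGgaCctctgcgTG
KRT83: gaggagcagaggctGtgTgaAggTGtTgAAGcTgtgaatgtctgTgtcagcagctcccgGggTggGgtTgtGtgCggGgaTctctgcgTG
KRT86: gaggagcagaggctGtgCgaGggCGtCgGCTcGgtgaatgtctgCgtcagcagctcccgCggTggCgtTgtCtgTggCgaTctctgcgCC

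The estimated depth was 6.63e+06 fragments in the acinar tumor, 7.27e+06 fragments in the solid tumor, 1.22e+07 fragments in the mix culture and 1.10e+07 fragments in the single culture. Levels are given as scaled counts, the deposited normalised count divided by 1 constant common to all libraries, and a count of 0 allows up to 3 fragments, which is 0.465, 0.420, 0.242 and 0.267 scaled counts in that order. With 1 library per group, differences between libraries could not be checked against replicates, and p-values are left out. Intervals are 95% and cover counting error only. Those for tumors against cultures pool both libraries of a setting, so they leave out how these libraries differ, and ratios of single pairs can lie outside them.

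Of the 55 keratins, 25 were listed at 0 in all 4 libraries and 5 more never exceeded 3 fragments. A further 6 exceeded 3 fragments somewhere but stayed under 1 scaled count, leaving 19 at 1 or more in at least 1 library and 14 at 5 or more. By class, 5 of 5 simple, 9 of 20 stratified, 3 of 26 hair follicle and 2 of 4 other keratins reached 1 scaled count. The silent members included KRT1 and KRT2 of the epidermis, KRT6C, and 19 of the 26 hair follicle keratins. Keratins over 3 fragments numbered 21 in the acinar tumor, 20 in the solid tumor, 11 in the mix culture and 13 in the single culture, although the cultures were sequenced more deeply. At 1 scaled count or more, keratins numbered 17, 16, 10 and 11 in that order, and all features 13467, 13638, 13057 and 13256.

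Keratin fragments made up 1.54% of the acinar tumor library (1.53 to 1.55), 1.22% of the solid tumor (1.21 to 1.22), 0.672% of the mix culture (0.668 to 0.677) and 0.539% of the single culture (0.535 to 0.543). The simple class supplied most of them in every library: 74.4% in the acinar tumor, 81.1% in the solid tumor, 77.8% in the mix culture and 85.9% in the single culture. The stratified class made up 15.2% (15.0 to 15.4) of keratin fragments in the acinar tumor and 9.54% (9.35 to 9.73) in the solid tumor, against 1.08% (1.01 to 1.15) in the mix culture and 1.40% (1.30 to 1.49) in the single culture.

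**Figure D1:**
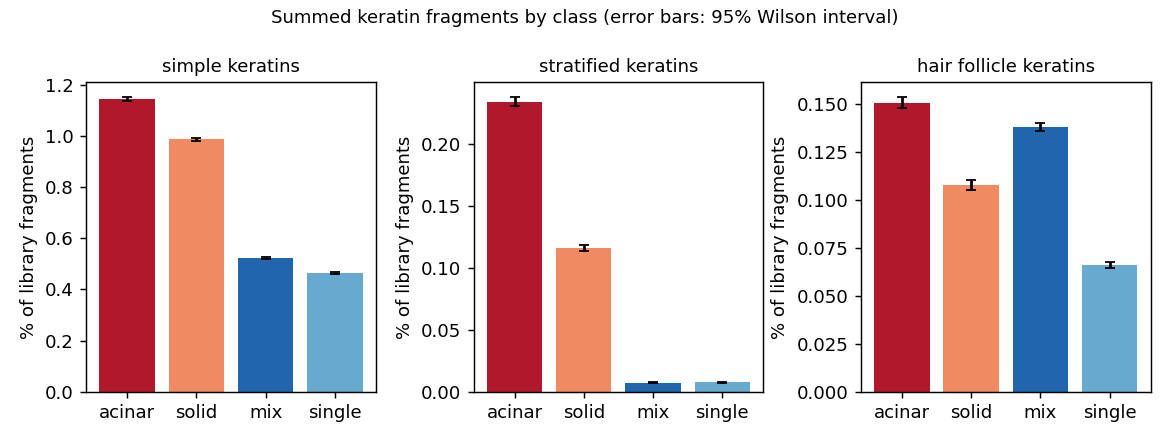
Share of each library's fragments taken by the simple, stratified and hair follicle keratins (y axes, percent of library fragments, each from 0 and with its own scale). Bars are single libraries, with 95% Wilson intervals. Stratified keratins took 0.234% and 0.116% of the acinar and solid tumor libraries and under 0.01% of each culture, while hair follicle keratins were of similar size in the mix culture (0.138%) and the acinar tumor (0.151%).

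Among the simple keratins, KRT8 and KRT18 were the steadiest. KRT8, the type II chain of all simple epithelia, had 4507 scaled counts in the acinar and 4061 in the solid tumor, against 2543 in the mix and 2451 in the single culture. Its type I partner KRT18 had 2656 scaled counts in the acinar and 3119 in the solid tumor, against 1671 in the mix and 1554 in the single culture. Both were higher in each tumor than in each culture, by less than 2-fold in the closest pair, and within a setting they differed by at most 1.17-fold. KRT8 and KRT18 have fractional fragments in the table and overlap on opposite strands in GENCODE 29, so no counting interval is given. Per kilobase of coding length, KRT18 stood at 0.662, 0.863, 0.738 and 0.712 of KRT8 in the acinar, solid, mix and single libraries.

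KRT7, the type II keratin of glandular and ductal linings, was higher both in the acinar than in the solid tumor and in the mix than in the single culture. It had 3780.3 scaled counts in the acinar against 2232 in the solid tumor, a ratio of 1.69 (1.66 to 1.73), and 899 in the mix against 473 in the single culture, a ratio of 1.90 (1.84 to 1.96). Both tumors lay above both cultures, with 4.26 times (4.18 to 4.34) the level over the pooled fragments of each setting. In GENCODE 29 the KRT7 and KRT86 loci overlap on the same strand, and the sources used here do not say how counting separated them.

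KRT19, a type I chain with no tail domain, was the simple keratin that differed most between settings. It had 818 scaled counts in the acinar and 607 in the solid tumor, against 15.1 in the mix and 33.4 in the single culture. The tumors were 29.7 times (27.3 to 32.4) above the cultures over pooled fragments, so that KRT19 stood at 0.219 and 0.181 of KRT8 per kilobase of coding length in the acinar and solid tumor but at 0.00719 and 0.0165 in the mix and single culture. Within settings it went in opposite directions: 1.35-fold higher in the acinar than the solid tumor (1.29 to 1.40) and 2.21-fold lower in the mix than the single culture (1.85 to 2.64). KRT20, the keratin of gut lining and bladder umbrella cells, was near the limit of detection, with 8 and 10 fragments in the acinar and solid tumor and 0 and 2 in the mix and single culture.

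**Figure D2:**
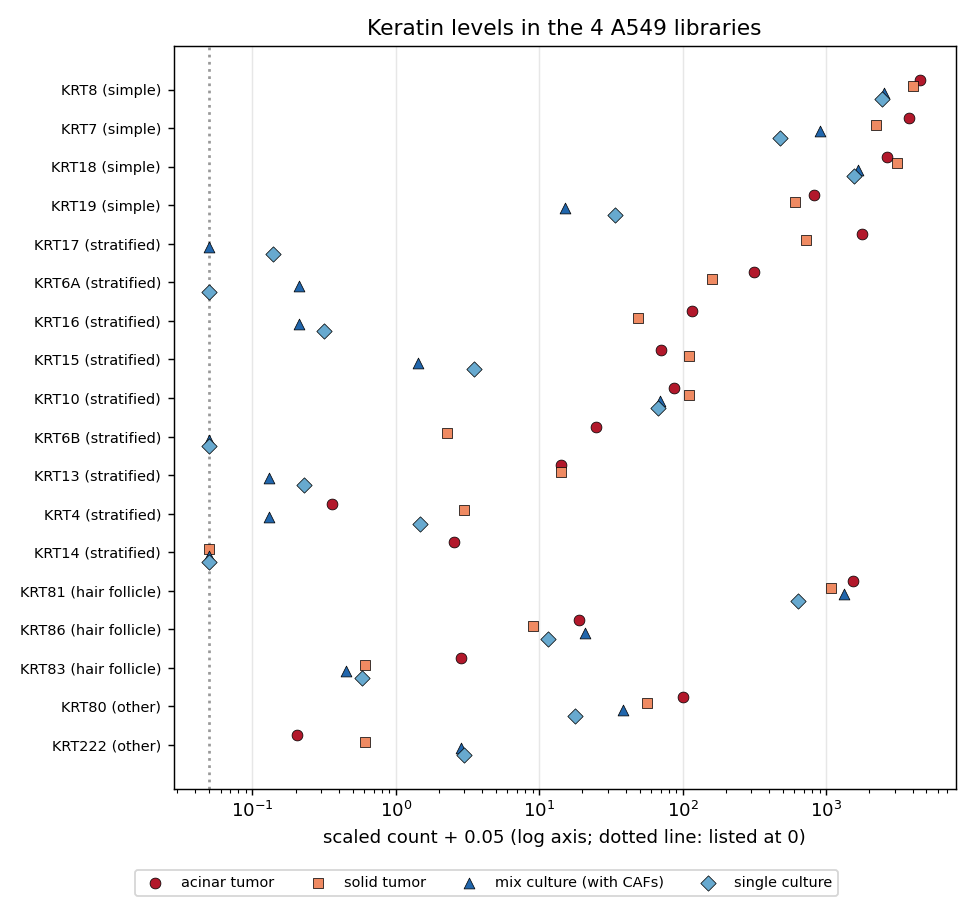
Scaled counts (x axis, log scale after adding 0.05) of the 18 keratins at 5 or more scaled counts in a library, or at 1 or more and past 2-fold in a comparison, by class. Each symbol is 1 library, and the dotted line marks genes listed at 0. KRT17, KRT6A, KRT16 and KRT13 have both tumors to the right and both cultures at or under 0.267, while KRT8, KRT18 and KRT10 keep all 4 libraries close together.

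The stratified keratins separated tumors from cultures most widely. KRT17, a type I keratin of basal and injured epithelium, had 1771 scaled counts in the acinar and 729 in the solid tumor, against 0 in the mix and 0.0889 in the single culture. In fragments that is 11423 and 5211 in the tumors against 0 and 1 in the cultures, a ratio of 28952 with a counting interval of 5196 to 1.14e+06, since it rests on 1 culture fragment. KRT6A, a type II keratin that pairs with KRT16 and KRT17, had 316 scaled counts in the acinar and 160.1 in the solid tumor, against 0.161 in the mix culture (2 fragments) and 0 in the single culture. KRT16 had 116 and 48.9 scaled counts in the acinar and solid tumor, against 0.161 and 0.267 in the mix and single culture (2 and 3 fragments), a ratio of 382 (163 to 1177).

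KRT6B, the close copy of KRT6A, had 24.8 scaled counts in the acinar and 2.24 in the solid tumor (160 and 16 fragments) and was listed at 0 in both cultures. The tumors were 102-fold higher if 3 fragments are taken over both cultures, a figure that leaves out counting error in the tumors. KRT13, a type I keratin of non-cornified mucosa, had 14.1 scaled counts in each tumor, against 0.0805 in the mix and 0.178 in the single culture, a ratio of 111 (37.5 to 545). KRT15, a type I keratin of basal cells and hair follicle stem cells, was low but present in culture. It had 70.4 scaled counts in the acinar and 110.1 in the solid tumor, against 1.37 in the mix and 3.47 in the single culture, a ratio of 38.6 (29.5 to 51.4).

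Not every stratified keratin followed. KRT10, a type I keratin of differentiating epidermis, had 87.1 scaled counts in the acinar and 109.8 in the solid tumor, against 69.0 in the mix and 67.6 in the single culture, although its epidermal partner KRT1 was listed at 0 throughout. The basal pair was nearly silent: KRT5 never exceeded 5 fragments, and KRT14 had 16 fragments in the acinar tumor and 0 in the other 3 libraries. KRT5 and KRT14, which mark basal epithelium, were thus low or at 0 in the tumors that held KRT6A, KRT13, KRT15, KRT16 and KRT17. KRT4, the mucosal partner of KRT13, had 0.310 scaled counts in the acinar and 2.94 in the solid tumor, against 0.0805 in the mix and 1.42 in the single culture.

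Counted over the family, with a member called where each tumor was at least 2-fold from each culture on the log2(scaled count + 1) scale, 8 of 19 tested keratins were higher in the tumors: KRT6A, KRT6B, KRT7, KRT13, KRT15, KRT16, KRT17 and KRT19. The same was true of 9.67% of all 14561 features tested. By class these were 6 of 9 tested stratified and 2 of 5 simple keratins, and 0 of 3 hair follicle keratins. KRT222, a keratin-like gene outside the classical classes, was the 1 member lower in the tumors, where 8.22% of all features were. It had 0.155 and 0.559 scaled counts in the acinar and solid tumor, against 2.82 and 2.93 in the mix and single culture. The median log2 difference over the 19 keratins was 1.09, and over all features 0.02.

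Of 15 keratins at 1 or more scaled counts in both tumors, 6 had at most 3 fragments in either culture, a pattern that 1.6% of the 13126 features at that level in both tumors showed. These 6 were KRT6A, KRT6B, KRT13, KRT16, KRT17 and the barely detected KRT20. With the low members included, 12 keratins exceeded 3 fragments in a tumor and stayed at or under 3 in both cultures. That count was not made over all features, so whether 12 is unusual was not tested. Beyond the 6 above, these were KRT5, KRT9, KRT12, KRT14, KRT23 and KRT34, none of which passed 16 fragments. The 1 keratin over 3 fragments in a culture but not in a tumor was the hair keratin KRT32, with 7 fragments in the single culture and 0 elsewhere.

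The tumor-high type I members lie close together in the genome, with KRT9 and KRT14, which were not called, between them. All type I keratin genes except KRT18, which sits beside KRT8 on chromosome 12, are on chromosome 17, where RefSeq orders 28 members of the family. The last 7 in that order are KRT13, KRT15, KRT19, KRT9, KRT14, KRT16 and KRT17. Of these 7, 5 were called higher in the tumors, where 9.67% of all features tested were. All 7 exceeded 3 fragments in a tumor, KRT9 only in the acinar tumor with 4, too few to be tested. Of the 21 keratins before this stretch only KRT10, KRT20 and KRT222 reached 1 scaled count in any library and so were tested. None of these 3 was called higher. This stretch was singled out after its values were seen, so the counts are no test of position.

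**Figure D3:**
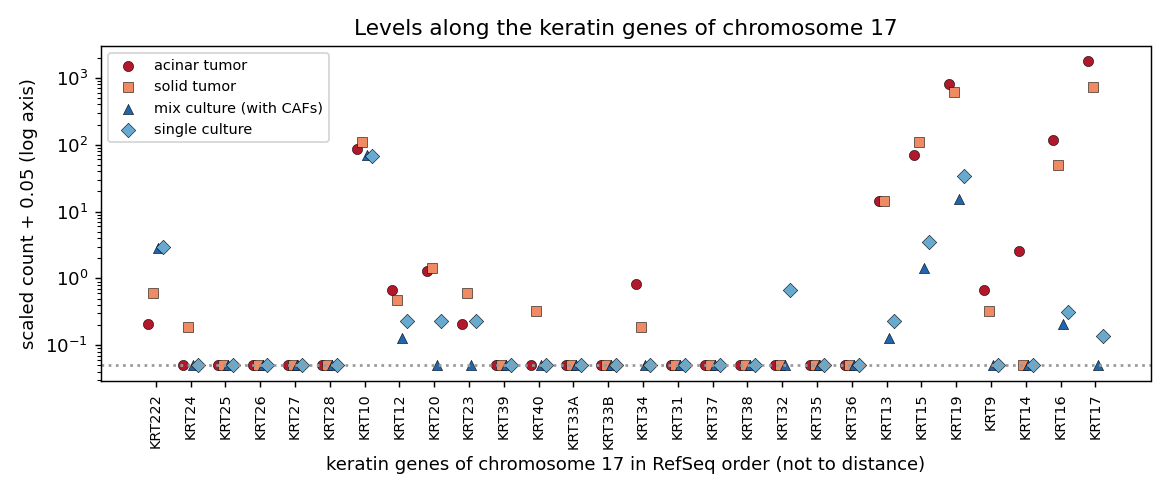
Scaled counts (y axis, log scale after adding 0.05) of the 28 keratin genes on chromosome 17 in RefSeq gene order, equally spaced. Each symbol is 1 library and the dotted line marks genes listed at 0. From KRT13 to KRT17 the tumor symbols lie above the culture symbols, except KRT14 in the solid tumor, which is at 0, with KRT19 at 818 and 607 scaled counts in the acinar and solid tumor against 15.1 and 33.4 in the mix and single culture.

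In acinar against solid tumor cells, the comparison that the series' title ties to histology, several stratified keratins were higher in the acinar library. With a call at 2-fold or more on the log2(scaled count + 1) scale, 6 of 18 tested keratins were higher, where 1.98% of all 13979 features were: KRT6B, KRT14, KRT16, KRT17, KRT83 and KRT86. KRT17 was 2.43-fold (2.35 to 2.51) and KRT16 2.36-fold (2.08 to 2.69) higher. KRT6A lay just under the limit at 1.97-fold (1.83 to 2.12, log2 difference 0.97). KRT86 lay just over it, at a log2 difference of 1.001. KRT83 rested on 18 fragments in the acinar and 4 in the solid tumor. KRT6B was 11.1-fold higher (6.62 to 19.9). KRT14, at 0 in the solid tumor, was at least 4.28-fold higher by its counting interval, or 5.91-fold with 3 fragments taken there. Its 16 acinar fragments stand beside 746 of KRT16, with which it shares a long run, so how many are its own is uncertain. Because the KRT6 copies share long runs, their sum was also taken: 340.3 scaled counts in the acinar against 162 in the solid tumor, 2.10-fold (1.95 to 2.25), so KRT6B added little to the level set by KRT6A.

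The rest of the stratified class went the other way or stayed level between the tumors. KRT15 was 1.56-fold lower in the acinar tumor (1.39 to 1.76), KRT10 1.26-fold lower (1.13 to 1.41), and the KRT13 ratio was 0.999 (0.744 to 1.34). KRT4 was the 1 keratin called lower, where 2.55% of all features were, and rested on 2 fragments in the acinar and 21 in the solid tumor (9.47-fold lower, 2.32 to 83.3). Summed, the stratified class was 2.04-fold higher in the acinar tumor, at 2404 against 1178 scaled counts, but KRT17 alone supplied most of that: without it the log2 ratio was 0.49, under the 2-fold limit. The simple class summed to 11762 in the acinar against 10021 scaled counts in the solid tumor, 1.17-fold higher, with no member past 2-fold. The median log2 difference over the 18 keratins was 0.63, beside 0.01 over all features.

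**Figure D4:**
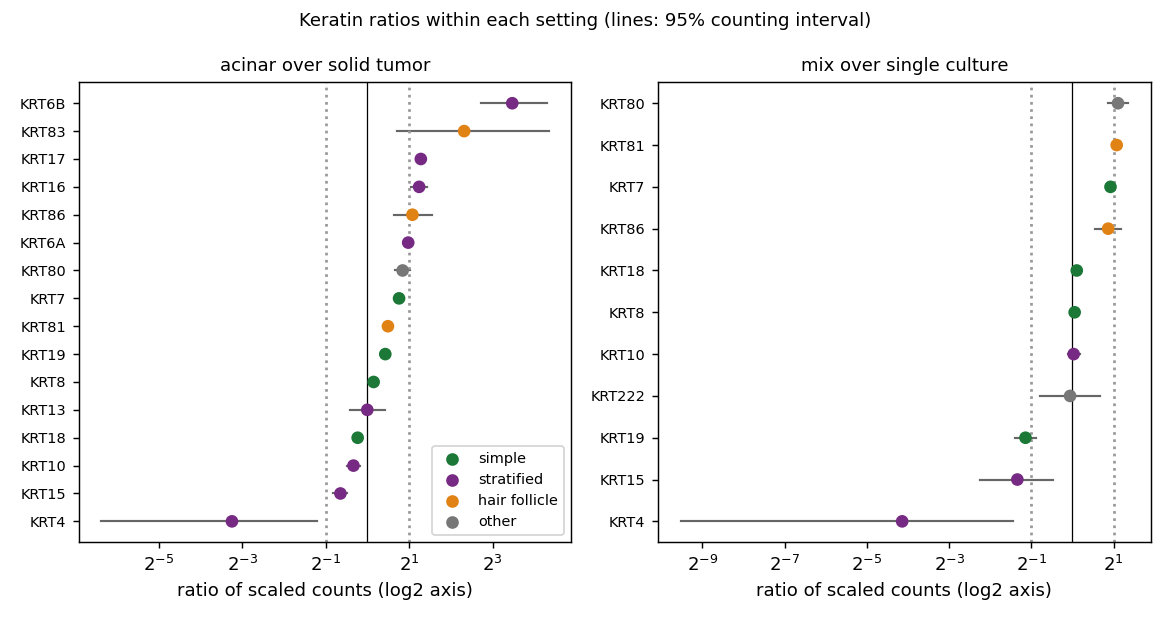
Ratios of scaled counts (x axis, log2 scale), acinar over solid tumor at left and mix over single culture at right, for named keratins at 1 or more scaled counts in the pair and above 0 in both libraries. Lines are 95% counting intervals, which KRT8 and KRT18 lack. Dotted lines mark 2-fold. KRT6B lies at 11.1 in the tumors, and KRT7, KRT80, KRT81 and KRT86 lie right of 1 in both panels.

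In colonies grown with CAFs, the keratins that differed were mostly of other classes, and the stratified keratins high in tumors were near 0 in both cultures apart from KRT15. Of 11 tested keratins 2 were called higher in the mix culture, where 0.682% of all 13485 features were, and 2 lower, where 1.74% were. KRT81, a hair cortex keratin, was 2.11-fold higher in the mix culture (1333 against 632 scaled counts, 2.05 to 2.17), and KRT80, a type II keratin of differentiated cells in many epithelia, 2.16-fold higher (38.3 against 17.8 scaled counts, 1.82 to 2.56). KRT19 was called lower, as given above, and so was KRT4, on 1 fragment in the mix and 16 in the single culture. KRT15 was 2.53-fold lower in the mix culture (1.40 to 4.77) but not called on the log2(scaled count + 1) scale, with 17 against 39 fragments. The median log2 difference over the 11 keratins was 0.05, beside 0.01 over all features.

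The simple pair did not take part: KRT8 was 1.04-fold and KRT18 1.08-fold higher in the mix culture, and KRT10 had a ratio of 1.02 (0.924 to 1.13). KRT6A, KRT13, KRT16 and KRT17 had at most 3 fragments in the mix culture and in the single culture, so a difference with CAFs was not detectable for them at this depth. Summed, stratified keratins stood at 71.1 scaled counts in the mix and 73.3 in the single culture, almost all of it KRT10.

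KRT81 was by far the most abundant hair keratin. It had 1529 scaled counts in the acinar and 1086 in the solid tumor, and in the mix culture it reached a level between the 2 tumors. Per kilobase of coding length its level was 1009 and 717 in the acinar and solid tumor, and 880 and 417 in the mix and single culture, so in the cultures it exceeded KRT7 (639 and 336). KRT86, its near copy, had 18.9 scaled counts in the acinar and 8.95 in the solid tumor, against 20.8 in the mix and 11.4 in the single culture. The KRT86 and KRT81 loci overlap on opposite strands in GENCODE 29, and the strand setting is not known, so how much of the KRT86 value is its own is uncertain. The sum of KRT81, KRT83 and KRT86 was 1.42-fold higher in the acinar tumor (1.37 to 1.46) and 2.10-fold higher in the mix culture (2.04 to 2.16). KRT83 itself had 18 fragments in the acinar and 4 in the solid tumor, against 5 in the mix and 6 in the single culture. KRT80 had 100.5 scaled counts in the acinar and 55.9 in the solid tumor, 1.80-fold higher (1.58 to 2.04).

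Type I and type II levels were not balanced at the RNA level. Summed per kilobase of coding length, type I keratins stood at 0.606 of type II in the acinar and 0.700 in the solid tumor, against 0.407 in the mix and 0.517 in the single culture. KRT16 stood at 0.437 and 0.364 of KRT6A in the acinar and solid tumor. KRT17, at 1367 per kilobase in the acinar tumor, exceeded KRT6A (186) and KRT6B (14.7) together, so it had no type II member of its own class at a matching level. In the solid tumor the same genes stood at 562, 94.6 and 1.32 per kilobase.

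Partners and regulators of keratins were counted beside the family. Of 15 genes for filament linkers and binding proteins, 14 were tested between tumors and cultures and 2 were higher in both tumors, a share near the 9.67% of all features: the desmosomal plaque genes PKP2 (23.1 and 19.3 scaled counts in the acinar and solid tumor, against 3.62 and 4.27 in the mix and single culture) and PKP3. Of 16 other intermediate filament genes 11 were tested and 5 were lower in the tumors, where 8.22% of all features were, among them the lamin gene LMNB1, at 18.6 and 18.5 scaled counts in the acinar and solid tumor against 108 and 81.1 in the mix and single culture. VIM, which encodes the mesenchymal filament vimentin, stood at 1943 and 2135 scaled counts in the acinar and solid tumor and at 1216 and 886 in the mix and single culture, so all libraries held vimentin and simple keratin RNA together. NES, encoding nestin, was 9.56-fold higher in the acinar than the solid tumor (5.68 to 17.2).

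Of 15 regulators of epithelial and keratinocyte genes, 11 were tested and 5 were higher in both tumors, where 9.67% of all features were. TP63, which drives basal keratinocyte genes, had 38.3 and 12.2 scaled counts in the acinar and solid tumor, against 1.69 and 2.31 in the mix and single culture. KLF4, a regulator of epidermal differentiation, had 276 and 173 scaled counts in the acinar and solid tumor, against 14.6 and 16.8 in the mix and single culture. Of 25 cornification genes 11 were tested, and 1, SFN, was higher in both tumors, a share near that of all features, at 978 and 483 scaled counts in the acinar and solid tumor against 84.6 and 60.3 in the mix and single culture. FLG, encoding filaggrin, was lower in both tumors. Within settings, 7 of the 45 genes tested over these 4 lists were called higher in the acinar than the solid tumor, where 1.98% of all features were, among them TP63 (3.15-fold, 2.46 to 4.07) and SFN. EPPK1, CALML5, SOX2 and TGM1, also among the 7, had at most 24 fragments in either tumor. None of the 45 was called lower, where 2.55% of all features were. In the mix culture 0 of 37 tested were higher, where 0.682% of all features were, and 2, GRHL3 and SOX2, were lower, where 1.74% were.

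Markers of other cells moved with the setting too, and their part in the keratin differences was not tested. Fibroblast markers summed to 670 and 312 scaled counts in the acinar and solid tumor, against 137 and 120 in the mix and single culture. The members did not move together. Of 9 tested, 2 were higher in both tumors (MFAP5 and LUM), where 9.67% of all features were. Another 3 were lower (PDGFRA, THY1 and FBLN1), where 8.22% were, PDGFRA and THY1 on at most 25 fragments in a culture. MFAP5 alone had 563 and 225 scaled counts in the acinar and solid tumor and 0 in both cultures, whereas FBLN1 had 11.2 and 27.4 in the acinar and solid tumor, against 89.4 and 75.0 in the mix and single culture. PDGFRA, POSTN, THY1 and COL6A3, 4 of 14 markers, were at 0 in both tumors. Leukocyte markers, 9 in number, summed to 146 and 239 scaled counts in the acinar and solid tumor, against 44.0 and 49.9 in the mix and single culture, with TYROBP at 0 in both tumors. CD68 and LYZ carried that sum, while CD14 had 2.64 and 9.65 scaled counts in the acinar and solid tumor, against 13.4 and 15.4 in the mix and single culture. Of 5 tested, 3 were called higher in both tumors (CD68, LYZ and ITGAM), where 9.67% of all features were. Between the tumors 2 of 5 were called lower in the acinar tumor (CD14 and LYZ) and 0 higher. Endothelial markers, 9 in number, summed to 15.2 and 2.38 in the acinar and solid tumor, against 1.45 and 1.96 in the mix and single culture, with EMCN and CLDN5 at 0 in both tumors. Most of the acinar sum was PLVAP, with 84 fragments there and 0 in the other 3 libraries. Erythroid markers, 5 in number, summed to at most 0.420 in any library, and muscle and fat markers, 7 in number, to at most 2.04; HBA1 and HBA2 of the first and MYH1, MYH2, CKM, ADIPOQ and FABP4 of the second were at 0 in both tumors. Host cells are mouse cells while the symbols are human, so these sums do not measure how much host tissue was present. In bulk libraries more cells with a keratin and more RNA per cell cannot be told apart.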

How the data were processed

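RNA of 4 A549 samples, 1 per group, was sequenced from TruSeq libraries, per the labels' protocols. Tools listed in the submitters' processing notes, with no roles, are Cuffdiff 2.2.1, SAMtools 1.0, TopHat2 2.0.13 and Bowtie2 2.2.3, on build hg19. For annotation and strand setting the sources used here give nothing. The authors deposited 1 signal value per gene and library, called a raw signal per the file headers. Each library had 1 step of which 90.1% to 91.2% of its nonzero values were multiples (tolerance 0.05 of a fragment, plus rounding to 6 digits), so the values behave as fragment counts divided by a size factor. All 55 keratins except KRT8 and KRT18 were whole in every library.

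Values were divided by 8.94 to give scaled counts. Features at 1 or more in a library of the comparison were tested against a 2-fold limit on log2(scaled count + 1). Ratios printed for single genes are plain. Their exact conditional binomial intervals use fragments, pooled over both libraries of a setting for tumors against cultures, and shares have Wilson intervals. Without molecular identifiers, fragments cannot be taken as separate molecules. Coding sequences and lengths came from the longest principal transcript in GENCODE 29 and gene order from RefSeq on GRCh38.p14; both matched all 55 members. As the builds differ, no coordinates are given. Ratios between genes are taken per kilobase of coding length, which ignores fragments from UTRs. Shares, class sums and the members said to supply most of them use fragments or scaled counts, with no correction for length. The calls were checked on simulated data. Python 3.11.15, scipy 1.17.1 and Biopython 1.88 were used.

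Full values are given for keratins at 5 or more scaled counts in a library, or at 1 or more and past 2-fold in a comparison. The members and gene lists were chosen with earlier results of these data known. Alternatives changed the pseudocount, the filter, the scaling, the features and the libraries.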

Additional observations from a re-analysis of the deposited data

How the results depend on the processing

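No paired analysis was possible because each group is 1 library and the labels carry no replicate numbers. With a pseudocount of 5 in place of 1, acinar against solid calls came to 3 higher and 0 lower (6 and 1 with 1). Mix against single calls came to 1 higher and 0 lower (2 and 2). Keratins above in both tumors came to 7 (8) and those below to 0 (1). The log2 ratio of summed stratified keratins between tumors and cultures was 4.54, against 4.61. With a filter of 5 scaled counts, keratins lower came to 0 in the acinar tumor, 1 in the mix culture and 0 in both tumors against both cultures, since KRT4 and KRT222 were then not tested. Keratins higher in the acinar tumor came to 4 (6), since KRT14 and KRT83 were also not tested. Leaving out each library in turn gave 9 to 11 keratins above in the tumors and 1 below.

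With only whole fragments, which removes KRT8 and KRT18, the log2 ratio of summed simple keratins was 0.69 for acinar over solid (0.23 with them), 0.85 for mix over single (0.18) and 2.39 for tumors over cultures (1.18). Dividing by library totals gave 0.21 for the first and 1.11 for the third. Without KRT8 the 3 ratios were 0.28, 0.33 and 1.51. Without KRT17 the stratified log2 ratios were 0.49 for acinar over solid (1.03 with it) and 2.89 for tumors over cultures (4.61), so the summed stratified difference between tumors rests largely on KRT17. Among single keratins, no called direction reversed under any alternative tried. KRT86 fell under the 2-fold limit between the tumors with total-count scaling (log2 difference 0.98). By log2 difference, averaged over libraries for tumors against cultures, 8 further calls fell under the limit, all with a pseudocount of 5. These were KRT4, KRT14, KRT83 and KRT86 between the tumors (-0.58, 0.58, 0.49 and 0.78), KRT4, KRT19 and KRT80 between the cultures (-0.34, -0.93 and 0.93), and KRT222 between tumors and cultures (-0.56). KRT6B kept a mean log2 difference of 1.555 between tumors and cultures with that pseudocount. It was still no longer called, since the solid tumor, at 2.24 scaled counts, then lay under 2-fold above the cultures. Depth limits the members that stayed near or under 20 fragments in every library, among them KRT4, KRT14, KRT20 and KRT83. It also limits the culture values of all keratins near 0 in culture.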
